A study of Mus musculus with 8 samples.

Results

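Mouse pluripotent lines that had been induced from neural stem cells with small molecule compounds (NSC-CiPSC) were compared with the mouse embryonic stem cell line R1 (ESC), gene by gene. The genes described are protein-coding genes that reached 1 FPKM (a read-fragment density, corrected for transcript length and library size) in any of the 4 libraries and in which all 3 NSC-CiPSC lines lay on the same side of ESC. Symbols of pseudogenes were left out. Of 12007 coding genes that reached this level, 7510 (62.55%) qualified, 4272 higher in the lines and 3238 lower, out of 39009 entries in each file. The direction of each of these genes was fixed by that choice and is not a result. At the edge of the choice, Endod1 reached 1.001 FPKM in its highest library and was included, and Syp reached 0.9994 FPKM and was not.

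The 3 NSC-CiPSC libraries are 3 lines, numbered 1, 2 and 3, from neural stem cells of a cross of C57BL/6J-Tg(GOFGFP)Imeg/Rbrc with ICR, a background that carries a GFP transgene. The labels number that transgene differently in every library, counting up by 1 from sample to sample, so the number was not used. ESC is 1 library of R1, of strain 129X1 x 129S1, and the labels give it no transgene. Strain, line, derivation and culture therefore differ together between the groups and cannot be told apart. The other 4 libraries of the series are 1 of the starting neural stem cells (NSC, passage P2, from E13.5 embryos), 1 of primary small intestinal epithelial cells (IEC, also E13.5) and 2 of lines induced from IEC (IEC-CiPSC 10 and 13), all of the same cross as the NSC-CiPSC lines. Whether the lines trace back to separate animals or cultures is not stated in the labels. The p-values rest on the spread between libraries alone, which may be partly technical, and ESC has no replicate of its own.

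Mouse embryonic stem cells can sit in a naive state, close to the cells of the inner cell mass, which is held by a circuit of transcription factors around Pou5f1, Sox2 and Nanog together with Klf2, Klf4, Esrrb, Tbx3 and Tfcp2l1. Exit towards the primed state of the epiblast brings in Otx2. Nodal, a secreted signal of the TGF-beta family, induces its own feedback inhibitors Lefty1 and Lefty2 in these cells. The Xlr genes form a cluster of similar copies on the X chromosome, and several of its members are imprinted in mouse brain.

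The 4 libraries were alike in depth. Relative depth estimated from low FPKM values ran from 0.909 to 1.02 of ESC, and between 12514 and 12879 genes reached 1 FPKM. Mitochondrial transcripts held between 1.94% and 5.61% of FPKM in the lines and 4.88% in ESC. Selenoprotein genes held from 8.20% to 9.37% in the lines and 6.38% in ESC. Across coding genes, Pearson's r of log2(FPKM + 1) was 0.951 to 0.958 between a line and ESC and 0.967 to 0.990 between lines, over genes that are not independent. Defining genes of the labelled cell type were present in all 4 libraries: the 4 core factors Pou5f1, Sox2, Nanog and Sall4 were at 50.4 FPKM or more in every one, the lowest value being Sall4 in ESC.

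The comparison with ESC asks how far lines induced by compounds differ from an embryonic stem cell line. A gene was called when limma gave an adjusted p under 0.05 (Benjamini-Hochberg over 17011 genes) and the mean difference was at least 2-fold on the log2(FPKM + 1) scale, which understates the change of low genes. Over all genes tested, 478 (2.81%) were called, 161 higher in the lines (0.946%) and 317 lower (1.86%). All 3 lines were above ESC in 5398 of these 17011 genes and below it in 4763, which is the background for the same counts in gene lists. An unadjusted limma p under 0.05 was reached by 3758 of the 17011, the background for such counts in the lists. Among the 7510 coding genes, 247 were called, which is 2.06% of the 12007 considered, 92 of them higher in the lines and 155 lower. That share is near the background and below it.

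The count of calls depends on single libraries, and the spread rests on 3 residual degrees of freedom. Without line 1, 230 genes of the same kind were higher and 213 lower. Without line 2 there were 36 higher and 71 lower, and without line 3 there were 14 higher and 38 lower. Leaving out a line of intestinal origin, which only informs the spread, gave 12 higher and 38 lower without line 10 and 13 higher and 40 lower without line 13. None of the 36 called genes that the naming rule chose changed direction in any alternative, and Cdc42ep2, Dpys, Hmga1, Ifitm3, Miip, Xaf1 and Xlr4b were called under all 16 alternatives tried.

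**Figure D1:**
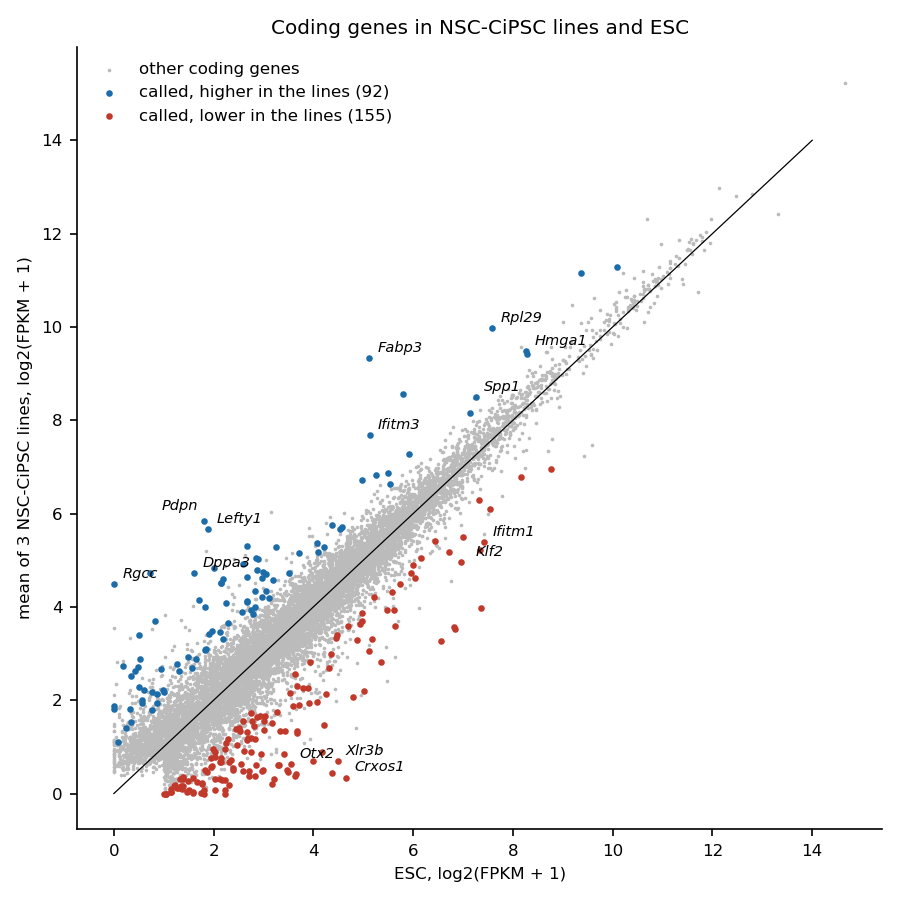
Each point is a coding gene, with its ESC level on the x axis and the mean of the 3 NSC-CiPSC lines on the y axis, both in log2(FPKM + 1). The line marks equality, and the 92 genes called higher (blue) and 155 called lower (red) lie away from it, with the red points concentrated at low levels in the lines.

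By fold alone, 432 coding genes were at least 2-fold from ESC in each of the 3 lines on the same side (170 higher, 262 lower), beside 4.49% of all genes tested, and 218 of them were called. At 4-fold there were 67 genes (30 higher, 37 lower), of which 52 were called. Of the 155 genes called lower, 82 had at least 1 line under 1 FPKM, and of the 92 called higher, 25 had ESC under 1 FPKM. These counts use unlike rules, any of 3 lines against 1 library, and cannot be set against each other. Among the 12007 coding genes considered, 10625 reached 1 FPKM in all 3 lines and 11176 in ESC. The 95% intervals that the authors' files give within each library were apart between ESC and all 3 lines for 2018 coding genes (16.8%) and for 220 of the 247 called. Those intervals cover the estimate within a library, not the variation between lines.

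Among the genes that rose, feedback inhibitors of Nodal stood high. Lefty1 (ENSMUSG00000038793, chromosome 1, 180935022 to 180938400, mm10) was at 55.3, 37.9 and 59.8 FPKM in lines 1, 2 and 3 and at 2.70 FPKM in ESC. All 3 lines were above the upper bound of the ESC interval, 4.52 FPKM, and the log2 difference was 3.79 ± 0.30 (SE, limma adjusted p = 0.0132). Lefty2, its neighbour on chromosome 1, was at 29.6, 38.2 and 49.7 FPKM in the lines and 5.40 FPKM in ESC, a log2 difference of 2.62 ± 0.30 (SE, limma adjusted p = 0.0328). The IEC-CiPSC lines were also above ESC, at 30.3 and 34.0 FPKM of Lefty1 and 97.8 and 101.9 FPKM of Lefty2. Nodal itself was at 33.1, 32.7 and 29.0 FPKM in the lines and 32.2 FPKM in ESC, so the ligand lay within the range of the lines. Of the 8 genes listed for this pathway, 2 were called higher and none lower, with a median log2 difference of 0.60 beside 0.02 over all genes tested. Without line 3 the adjusted p was 0.0627 for Lefty1 and 0.0667 for Lefty2, and without line 2 it was 0.107 for Lefty2. Without IEC-CiPSC line 10 it was 0.0780 for Lefty1 and 0.129 for Lefty2, and without line 13 0.0773 and 0.130. The 2 genes share 17.9% of the 50-base words of Lefty1, so some fragments could be assigned to either.

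Dppa3 (Stella), a maternal factor that protects DNA methylation in the early embryo and is patchy among cultured stem cells, was at 17.9, 34.4 and 26.8 FPKM in the lines and at 2.05 FPKM in ESC. Every line exceeded the upper ESC bound of 3.25 FPKM, and the log2 difference was 3.12 ± 0.38 (SE, limma adjusted p = 0.0363). It lies on chromosome 6 at 122626410 to 122630272. Spp1, which encodes the secreted matrix protein osteopontin, was at 391, 339 and 352 FPKM against 152 FPKM, a log2 difference of 1.24 (limma adjusted p = 0.0141). Mylpf, a myosin light chain gene, was at 739, 677 and 625 FPKM against 311 FPKM, 1.13 higher (limma adjusted p = 0.0211). Morc1, needed to silence transposons in the male germ line, went the other way, from 43.3 FPKM in ESC to 12.1, 17.1 and 13.7 FPKM, and fell by 1.55 (limma adjusted p = 0.0447). These were the 4 calls among 18 other markers of embryonic stem cells, 3 higher and 1 lower. Without line 3, or without either IEC-CiPSC line, none of the 4 passed, with adjusted p from 0.0533 for Mylpf without line 3 to 0.157 for Morc1 without line 3. Without line 2 Dppa3 was at 0.0716 and Mylpf at 0.0817.

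Fabp3, Apoa2 and Pdpn were also among the 12 largest rises. Fabp3, a carrier of fatty acids in the cytoplasm (chromosome 4, 130308595 to 130315463), was at 468, 824 and 689 FPKM in the lines and 33.7 FPKM in ESC, a log2 difference of 4.22 ± 0.35 (SE, limma adjusted p = 0.0155). NSC held 7.04 FPKM and the IEC-CiPSC lines 344 and 289 FPKM. Apoa2, a lipoprotein component, was at 32.1, 20.02 and 25.7 FPKM against 0.646 FPKM, 4.01 higher (limma adjusted p = 0.0100). Pdpn, a mucin-like membrane glycoprotein, was at 44.9, 76.2 and 52.9 FPKM against 2.48 FPKM, 4.05 higher (limma adjusted p = 0.0198). The lowest line was well above ESC for each of these. The IEC-CiPSC lines held 18.5 and 16.7 FPKM of Apoa2 and 41.3 and 28.6 FPKM of Pdpn. Cldn6, a tight junction protein of early epithelia, was at 20.5, 27.7 and 23.6 FPKM against 5.34 FPKM, 1.97 higher (limma adjusted p = 0.0268), and was the 1 call among 11 epithelial genes. Without line 3 the adjusted p of these 4 genes ran from 0.0676 for Apoa2 to 0.128 for Cldn6, and without either IEC-CiPSC line from 0.0641 for Apoa2 to 0.108 for Cldn6. Without line 2 Cldn6 was at 0.0642.

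Members of the Ifitm family, small membrane proteins of which Ifitm3 restricts virus entry, moved in opposite directions at neighbouring positions of chromosome 7. Ifitm3 (141009586 to 141010770) was at 221, 192 and 202 FPKM in the lines and 33.9 FPKM in ESC, a log2 difference of 2.56 ± 0.10 (SE, limma adjusted p = 0.00249). Ifitm1 (140967221 to 140969825) was at 44.2, 41.9 and 36.5 FPKM in the lines and 171 FPKM in ESC, and fell by 2.04 (SE 0.12, limma adjusted p = 0.00716). All 3 lines lay outside the ESC interval in both genes, above its upper bound of 39.2 FPKM for Ifitm3 and below its lower bound of 156.2 FPKM for Ifitm1. The IEC-CiPSC lines lay on the same sides of ESC, at 255 and 275 FPKM of Ifitm3 and 102 and 105 FPKM of Ifitm1. Ifitm2 was at 260, 483 and 396 FPKM against 491 FPKM and was not called (limma adjusted p = 0.597). The call of Ifitm3 held without any 1 library, and that of Ifitm1 was lost without IEC-CiPSC line 10 (0.0542) or 13 (0.0544). Of 14 interferon-related genes these 2 were the only calls in the reported fit, and a pseudocount of 0.1 gave 1 higher and 2 lower. Of the 14, 6 reached 1 FPKM in ESC and 7 in all 3 lines. All 3 lines were above ESC in 4 and below it in 5. The antiviral genes Ifit1, Ifit3, Isg15 and Oasl2 stayed under 1 FPKM in all 4 libraries.

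Further rises fell on genes with other roles. Rgcc, a regulator of the cell cycle, was listed at 0 in ESC and was at 12.3, 29.5 and 26.3 FPKM in the lines (limma adjusted p = 0.0349). The adjusted p was 0.0908 without line 2, 0.134 without line 3, and 0.132 and 0.131 without IEC-CiPSC lines 10 and 13. Cdc42ep2, an effector of the small GTPase Cdc42 that shapes actin, was at 10.9, 12.2 and 12.8 FPKM against 0.760 FPKM, 2.88 ± 0.16 higher (SE, limma adjusted p = 0.00590). Miip, an inhibitor of cell migration, was at 24.1, 27.7 and 30.8 FPKM against 3.02 FPKM, 2.82 ± 0.16 higher (SE, limma adjusted p = 0.00587). The 3 lines agree within a narrow range in both genes. Tceanc2 was at 18.1, 17.1 and 14.9 FPKM against 2.27 FPKM, 2.43 higher (limma adjusted p = 0.0102, and 0.0554 without line 2). Hmga1, an architectural chromatin protein abundant in stem cells, was at 724, 703 and 709 FPKM against 305 FPKM, 1.22 ± 0.05 higher (SE, limma adjusted p = 0.00287), although 69.1% of its words occur in the copy Hmga1b. The IEC-CiPSC lines held 596 and 587 FPKM of Hmga1. Tmem254c was at 30.4, 20.5 and 19.9 FPKM against 3.57 FPKM, 2.40 higher (limma adjusted p = 0.0335). Every word of its transcript occurs in Tmem254a or another copy, so its own level is uncertain. Its adjusted p was 0.0920 without line 2, 0.108 without line 3 and 0.127 and 0.128 without the IEC-CiPSC lines.

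**Figure D2:**
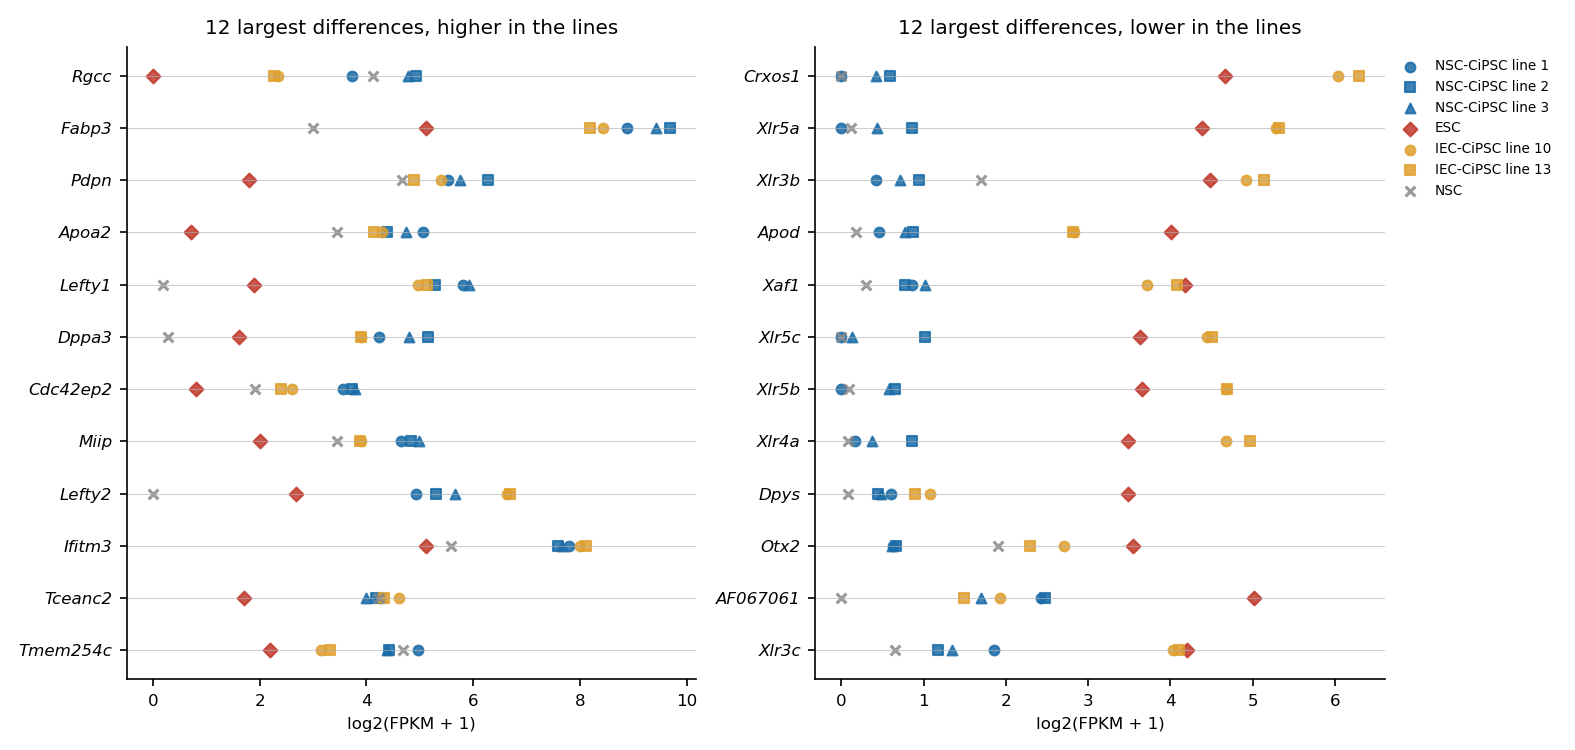
Levels in log2(FPKM + 1) of the 12 genes with the largest rise (left) and the 12 with the largest fall (right) by library, with the 3 NSC-CiPSC lines in blue, ESC in red, the IEC-CiPSC lines in orange and NSC in grey. The blue points of each gene lie on 1 side of the red one by the choice of genes, while the orange points lie beyond ESC for Crxos1 and most Xlr genes. On the left, the orange points of every gene also lie above the red one.

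The largest differences below ESC included the Xlr cluster of the X chromosome. The RefSeq sequence (GRCm38.p6) of the 250 bases before the start of 3 of its genes is shown, 1 from each subfamily, because the copies fell together; each is written on the strand of its gene, 5′ to 3′, with CG dinucleotides in capitals. Xlr3b is at chrX:73191929-73192178, Xlr4b at chrX:73214083-73214332 and Xlr5b at chrX:73148591-73148840, all on the plus strand.
Xlr3b: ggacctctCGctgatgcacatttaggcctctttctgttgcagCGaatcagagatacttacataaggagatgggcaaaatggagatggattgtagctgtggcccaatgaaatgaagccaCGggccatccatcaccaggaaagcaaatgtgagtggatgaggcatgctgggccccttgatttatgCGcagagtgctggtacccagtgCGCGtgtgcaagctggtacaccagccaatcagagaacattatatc
Xlr4b: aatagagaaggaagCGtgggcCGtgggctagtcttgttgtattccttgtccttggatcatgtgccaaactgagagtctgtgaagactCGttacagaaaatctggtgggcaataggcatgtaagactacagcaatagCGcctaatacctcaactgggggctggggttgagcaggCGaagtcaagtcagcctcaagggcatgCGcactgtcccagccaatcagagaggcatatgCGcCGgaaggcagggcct
Xlr5b: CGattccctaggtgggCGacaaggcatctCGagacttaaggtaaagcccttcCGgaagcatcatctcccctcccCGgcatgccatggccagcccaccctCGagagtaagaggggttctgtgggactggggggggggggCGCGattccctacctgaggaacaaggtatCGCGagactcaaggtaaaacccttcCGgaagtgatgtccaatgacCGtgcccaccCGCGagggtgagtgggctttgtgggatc
They hold 6, 8 and 14 CG dinucleotides, and 50.4%, 43.0% and 29.4% of 32851 RefSeq promoters hold as many or more in a window of this length. In local alignments of these 250-base windows, Xlr3b and Xlr3c were identical at 98.3% of 230 aligned bases, and Xlr3a matched them at 93.6% and 95.2% over 187 and 167 bases. Xlr4a, Xlr4b and Xlr4c matched one another at 98.2% to 99.1% over 220 to 243 bases. Xlr5a and Xlr5b were identical over 205 bases, whereas Xlr5c aligned with either over 21 bases only (85.7%).

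Of 9 Xlr genes tested, 8 were called lower. Xlr3b was at 0.341, 0.925 and 0.644 FPKM in lines 1, 2 and 3 and at 21.4 FPKM in ESC, and fell by 3.79 (SE 0.25, limma adjusted p = 0.00920). Xlr4b, whose promoter is shown, was at 0.0840, 0.273 and 0.104 FPKM against 8.001 FPKM and fell by 2.97 (SE 0.13, limma adjusted p = 0.00325). Xlr5b was listed at 0 in line 1 and was at 0.577 and 0.490 FPKM in lines 2 and 3, against 11.5 FPKM (limma adjusted p = 0.0204). All lines were therefore at or under 1 FPKM for these 3 genes, and ESC was at 8 FPKM or more. Xlr3a had the widest difference, from 39.2 FPKM in ESC to 0.0939, 2.92 and 0.709 FPKM, but was not called (limma adjusted p = 0.0691). The other called copies Xlr4a, Xlr4c, Xlr5a and Xlr5c were at 8.24 to 19.8 FPKM in ESC and at 1.02 FPKM or less in every line. Xlr3c was the highest called copy in the lines, at 2.63, 1.25 and 1.54 FPKM against 17.4 FPKM (limma adjusted p = 0.0316).

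The starting NSC were also low, at 2.25 FPKM for Xlr3b, 0.0702 FPKM for Xlr5b and listed at 0 for Xlr4b. The IEC-CiPSC lines held 29.3 and 34.3 FPKM of Xlr3b, 16.8 and 17.1 FPKM of Xlr4b and 24.6 and 24.8 FPKM of Xlr5b. Levels across the whole X chromosome moved with that contrast: the median log2 difference from ESC over 425 coding X genes was -0.01 in the NSC-CiPSC lines and 0.82 in IEC-CiPSC line 10, and its part in the Xlr values of the IEC-CiPSC lines was not tested. The copies share between 47.8% and 90.2% of their words with other genes, and the deposited span of Xlr5a covers other Xlr genes, so the split among copies is uncertain and the cluster is better read as a group. Without line 3 only 2 of the 9 were called, and without either IEC-CiPSC line also 2, while 7 were called without line 1 and 7 without line 2. Xlr4b and Xlr4c were called in each of those 5 fits. With a pseudocount of 0.1, or in a fit on the 4 libraries alone, there were 3.

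**Figure D3:**
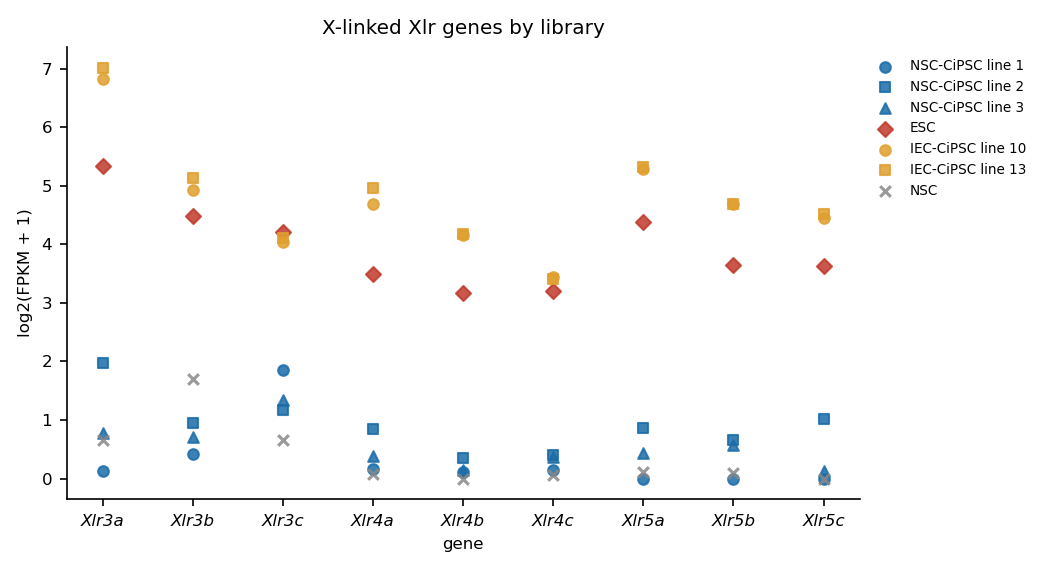
Levels in log2(FPKM + 1) of the 9 Xlr genes by library. In each gene the blue NSC-CiPSC points lie below the red ESC point, and the grey NSC point is also below it; the orange IEC-CiPSC points lie at the level of ESC or above.

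In the wider list of 13 genes from germline clusters of the X chromosome, which includes 7 of the Xlr genes, 8 were called lower and none higher, with a median log2 difference of -2.75. The count was 2 lower without line 3, 3 lower and 1 higher without either IEC-CiPSC line, and 4 lower with a pseudocount of 0.1 or in the fit on the 4 libraries, and quantile normalization added 1 higher. Magea4, a cancer-testis antigen gene, was at 0, 0.145 and 0 FPKM in the lines against 3.71 FPKM (limma adjusted p = 0.00880, and 0.0596 without line 3). Rhox2a was at 0.331, 0 and 0.162 FPKM against 2.42 FPKM (limma adjusted p = 0.0287, and 0.128 without line 3). Both were named after their values were seen. Rhox5, the founding reproductive homeobox gene, was at 77.9, 59.4 and 89.4 FPKM against 77.8 FPKM, and Rhox9 was at 3.64, 3.83 and 3.81 FPKM against 1.101 FPKM (limma adjusted p = 0.0595), so the X-linked germline genes did not all move one way.

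Crxos1, a homeobox gene of the early embryo on chromosome 7 (15882617 to 15904030), showed the largest fall among the called genes that the rule named. It was listed at 0 in line 1 and was at 0.510 and 0.339 FPKM in lines 2 and 3, against 24.3 FPKM in ESC, and fell by 4.32 (SE 0.29, limma adjusted p = 0.00910). The IEC-CiPSC lines held 64.8 and 77.2 FPKM. Without line 3 its adjusted p was 0.0609, and without the IEC-CiPSC lines 0.0542 and 0.0538. Otx2, the homeobox gene of the primed state and the anterior brain, was at 0.542, 0.580 and 0.533 FPKM in the lines against 10.7 FPKM and fell by 2.92 (SE 0.19, limma adjusted p = 0.00867). The 3 lines were nearly equal, and NSC held 2.73 FPKM. Without lines 2 and 3 in turn the adjusted p of Otx2 was 0.0503 and 0.0627. Otx2 was the 1 call among 8 primed-state genes tested. Kdr, a receptor for vascular growth factors, passed the adjusted p of limma (0.0156) but not the 2-fold limit, at 0.0338, 0.0561 and 0.0332 FPKM against 0.882 FPKM.

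The other large falls have varied roles. Xaf1, which antagonises an inhibitor of apoptosis, was at 0.812, 0.716 and 1.02 FPKM in the lines and 17.0 FPKM in ESC, and fell by 3.29 (SE 0.21, limma adjusted p = 0.00780). Apod, a lipocalin that carries small lipids, was at 0.378, 0.836 and 0.706 FPKM against 15.0 FPKM, and fell by 3.30 (SE 0.20, limma adjusted p = 0.00703). Dpys, the dihydropyrimidinase of pyrimidine breakdown, was at 0.518, 0.365 and 0.401 FPKM against 10.2 FPKM, and fell by 2.97 (SE 0.11, limma adjusted p = 0.00165). In these 3 genes every line was at about 1 FPKM or below. For Xaf1, NSC held 0.231 FPKM and the IEC-CiPSC lines 12.1 and 15.9 FPKM, while for Dpys the IEC-CiPSC lines held 1.11 and 0.859 FPKM. Apod lost its call without line 3 (0.0523) and without IEC-CiPSC line 10 (0.0508). AF067061, which shares words with the Tcstv3 gene of the 2-cell stage, was at 4.39, 4.56 and 2.24 FPKM against 31.3 FPKM and fell by 2.81 (limma adjusted p = 0.0487); it was called in none of the 5 fits that leave out a library, with adjusted p from 0.0599 without line 1 to 0.144 without IEC-CiPSC line 13.

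The transcription factors that hold the naive state lay mostly below ESC in the lines, with 1 call. Of 12 such genes 10 had all 3 lines below ESC and none had all 3 above, with a median log2 difference of -0.80, and 1 was called lower. The background is 4763 of 17011 genes tested with all 3 lines below ESC. That gene was Klf2, at 46.1, 49.99 and 37.7 FPKM in the lines against 126.7 FPKM, which fell by 1.496 (SE 0.22, limma adjusted p = 0.0498). All lines were below the lower ESC bound of 121.2 FPKM, but the call was lost in each of the 5 fits without a library, with adjusted p from 0.0674 without line 1 to 0.130 without IEC-CiPSC line 13. Zfp42 (Rex1), a zinc finger gene used as a marker of naive cells, was at 238, 146 and 158 FPKM against 764 FPKM, with a log2 difference of -2.11 (limma adjusted p = 0.0555). Klf2 and Zfp42 both lie on chromosome 8, whose coding genes had a median log2 difference of -0.24. The part of that shift in their values was not tested. Tbx3 was at 16.0, 21.8 and 23.7 FPKM against 56.5 FPKM (limma adjusted p = 0.0658), and Esrrb at 127, 122 and 129 FPKM against 185 FPKM (limma adjusted p = 0.0544). Klf4 lay among the lines, at 88.0, 69.4 and 87.4 FPKM against 75.4 FPKM. In the IEC-CiPSC lines Zfp42 was at 207 and 247 FPKM and Klf2 at 70.0 and 87.9 FPKM.

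None of the 4 core factors was called. Pou5f1 was at 1001, 936 and 848 FPKM in the lines against 1041 FPKM (limma adjusted p = 0.451), and Nanog at 219, 441 and 383 FPKM against 384 FPKM (limma adjusted p = 0.843), with line 1 the lowest. Sox2 was at 143, 138 and 143 FPKM against 201.1 FPKM; it passed the adjusted p (0.0321, limma) but its log2 difference of -0.51 was short of 2-fold. Sall4 was at 84.3, 58.6 and 57.7 FPKM against 50.4 FPKM (limma adjusted p = 0.473). Trap1a, an X-linked tumour antigen gene of embryonic stem cells, was like Sox2 in passing the adjusted p (0.0129, limma) at a log2 difference of -0.65, with 119, 122 and 121 FPKM against 191 FPKM.

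**Figure D4:**
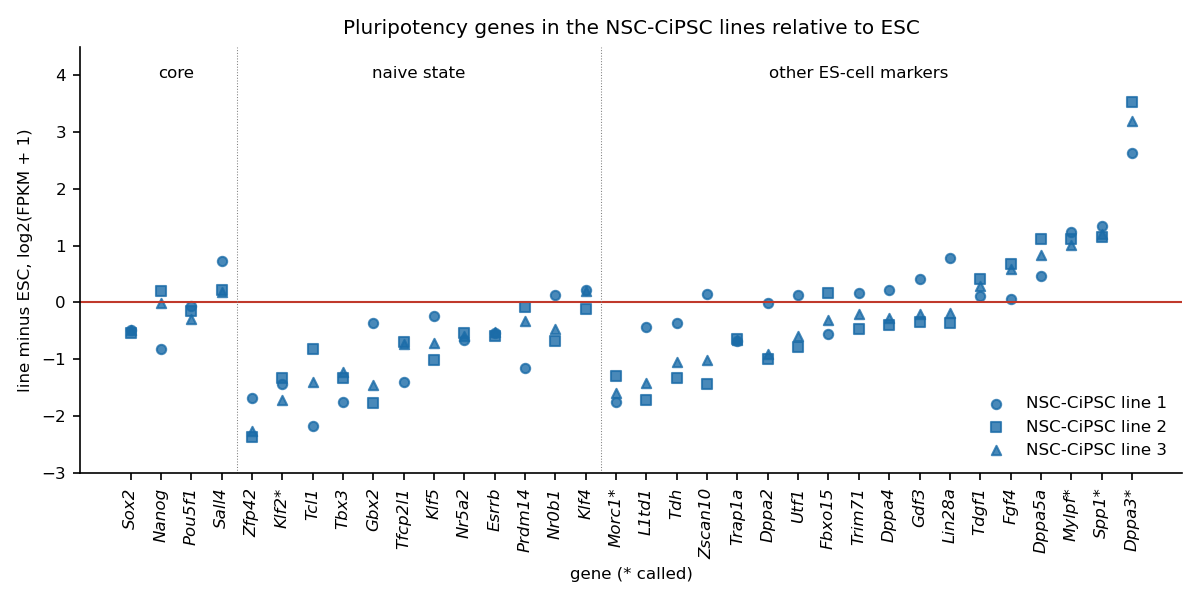
Difference of each NSC-CiPSC line from ESC in log2(FPKM + 1) for 4 core factors, 12 naive-state factors and 18 other markers, with called genes starred. The naive-state genes lie mostly below the ESC line at 0, from Zfp42 at -2.11 to Klf4 at 0.10 on average, and Dppa3 stands apart at the top.

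Genes of the 2-cell stage, which flare up in rare cells of stem cell cultures, had no call. Of 10 tested, 8 had all 3 lines below ESC, the median log2 difference was -1.12, 7 had an unadjusted p under 0.05 and 0 were called by limma after adjustment. Over all 17011 genes tested, 4763 had all 3 lines below ESC and 3758 had an unadjusted limma p under 0.05. Zscan4f, a telomere-associated SCAN domain gene, was at 43.8, 70.5 and 48.8 FPKM in the lines against 123.4 FPKM (limma adjusted p = 0.121). Zscan4c was at 23.2, 36.3 and 25.6 FPKM against 68.3 FPKM, and 85.5% of its words occur in other copies. Tcstv1 was at 1.90, 4.10 and 1.33 FPKM against 1.85 FPKM and so did not share the direction.

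Imprinted genes were mixed. Of 32 tested, 14 had all 3 lines above ESC and 6 below, and 1 was called. Among all 17011 genes tested, 5398 had all 3 lines above ESC and 4763 below. H19, the maternally expressed non-coding RNA of chromosome 7, was at 40.8, 56.9 and 40.4 FPKM in the lines against 9.02 FPKM, a log2 difference of 2.21 (limma adjusted p = 0.0256, 0.0944 without line 3 and 0.113 and 0.112 without IEC-CiPSC lines 10 and 13). It is not protein-coding and is given as a member of the list. Its paternally expressed neighbour Igf2 was at 6.84, 4.51 and 3.05 FPKM against 0.485 FPKM and was not called (limma adjusted p = 0.0960). Peg3, a paternally expressed zinc finger gene, was at 47.6, 22.3 and 29.1 FPKM against 4.33 FPKM (limma adjusted p = 0.0653). Meg3, of the Dlk1-Dio3 locus, was at 343, 83.7 and 173 FPKM, on both sides of 149 FPKM in ESC.

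Markers of the starting cells were low in the lines. Of 19 neural progenitor genes, summed FPKM was 25.3 to 33.3 in the lines and 12.5 in ESC, and 3 of the genes were listed at 0 in ESC. Olig1, a basic helix-loop-helix factor of the oligodendrocyte lineage, was the 1 call: it was at 5.22, 5.02 and 5.27 FPKM in the lines against 0.347 FPKM in ESC and 515 FPKM in NSC, a log2 difference of 2.19 (SE 0.11, limma adjusted p = 0.00455). The IEC-CiPSC lines, which come from intestine, held 5.63 and 5.28 FPKM of Olig1. Its neighbour Olig2 was at 11.1, 3.65 and 5.32 FPKM against 0.0436 FPKM (limma adjusted p = 0.0953). In 8 of the 19 all 3 lines were above ESC and in none were all 3 below, beside 5398 above and 4763 below among 17011 genes tested. In this list 3 genes had an unadjusted limma p under 0.05, beside 3758 of 17011 genes tested, and the median log2 difference was 0.20. Among genes abundant in NSC, Slc1a3 was at 5.82, 6.87 and 5.55 FPKM against 6.08 FPKM and Ptprz1 at 0.209, 0.231 and 0.145 FPKM against 0.173 FPKM, while NSC held 739 and 172 FPKM.

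Fibroblast and extraembryonic endoderm genes gave no call. Over 16 fibroblast genes the summed FPKM was 76.0 to 119 in the lines and 103 in ESC, most of it from Fn1, at 60.3, 105 and 97.3 FPKM in the lines and 86.6 FPKM in ESC, and Lum and Fap were at 0 in all 4 libraries. Over 10 genes of extraembryonic endoderm it was 5.09 to 6.68 in the lines and 4.799 in ESC. Trophectoderm genes summed to 94.97 to 141 FPKM in the lines and 33.4 FPKM in ESC. Of 8, 7 were higher in all 3 lines, 0 were called by limma and 3 had an unadjusted p under 0.05. Among all 17011 genes tested, 5398 were higher in all 3 lines and 3758 had an unadjusted limma p under 0.05. Krt18, a simple epithelial keratin, was at 52.1, 29.6 and 24.1 FPKM against 5.16 FPKM (limma adjusted p = 0.0896), and Tfap2c, a transcription factor of trophoblast and germ cells, at 30.3, 45.6 and 41.2 FPKM against 15.3 FPKM (limma adjusted p = 0.0889). The trophoblast regulator Elf5 was at 0 in all 4 libraries. In bulk libraries more cells of a type and more RNA per cell cannot be told apart.

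Metabolic lists gave 1 call or none. Of 21 cholesterol synthesis genes, 16 had all 3 lines above ESC, with a median log2 difference of 0.54, 6 at an unadjusted p under 0.05 and 0 called by limma. The background over all 17011 genes tested is 5398 with all 3 lines above ESC and 3758 at an unadjusted limma p under 0.05. Insig1, a sterol sensor, was at 24.3, 67.1 and 60.8 FPKM against 18.4 FPKM, so line 1 was near ESC and lines 2 and 3 were not. Of 11 genes of the oxidative stress response governed by NRF2, 9 were above ESC in all 3 lines and 1 was called, Gstm2, a glutathione transferase, at 13.0, 15.9 and 14.1 FPKM against 5.70 FPKM (limma adjusted p = 0.0452). Its adjusted p was 0.103 without line 2, 0.156 without line 3 and 0.128 without either IEC-CiPSC line. Glycolysis (16 genes) and hypoxia (11 genes) had median log2 differences of -0.03 and 0.06 and 0 calls by limma, with 2 and 0 genes at an unadjusted p under 0.05.

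Nnt, the mitochondrial transhydrogenase, is deleted in part in C57BL/6J mice. It was at 18.9, 15.3 and 17.7 FPKM in the lines, 15.8 FPKM in NSC, 7.69 FPKM in ESC and 9.54 and 9.38 FPKM in the IEC-CiPSC lines. It rose by 1.07 against ESC (limma adjusted p = 0.0431), and lost the call without line 2 (0.0523), line 3 (0.155) or an IEC-CiPSC line (0.148), with a pseudocount of 5, and under each of the 3 rescalings tried (median of ratios, quantile, and without mitochondrial and selenoprotein genes). The ESC level was thus the lowest of the pluripotent libraries.

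The lines differed among themselves. The median SD of log2(FPKM + 1) between the 3 lines was 0.20 over all coding genes, 0.14 over the 247 called genes and 0.32 over 214 genes that were at least 2-fold from ESC in every line without a call. A call weighs the difference against a spread that includes these 3 lines. The smaller SD of called genes therefore follows from the call and is not a result. Line 1 lay farthest from the middle value of the 3 in 6781 of 12007 genes, line 2 in 3223 and line 3 in 2003. Spry4, a feedback inhibitor of ERK signalling, was at 13.2 FPKM in line 1 and 0.733 and 2.34 FPKM in lines 2 and 3, against 29.9 FPKM in ESC (limma adjusted p = 0.299). Stra8, a gene of meiotic entry, was at 29.6 FPKM in line 1 and 108 and 82.1 FPKM in lines 2 and 3, against 7.92 FPKM (limma adjusted p = 0.153). Tagln, an actin-binding protein of smooth muscle, was highest in line 1, at 60.4, 31.1 and 24.54 FPKM against 2.62 FPKM (limma adjusted p = 0.0595). Bmp4, a ligand of the BMP pathway, was at 5.85, 1.58 and 2.46 FPKM against 21.0 FPKM (limma adjusted p = 0.122). These 4 genes were named after their values were seen, as examples of a large difference with a wide spread.

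At the other end, 185 coding genes were within 1.1-fold of ESC in all 3 lines while keeping to 1 side of it. The most abundant of them serve general functions. Pabpc1, the poly(A)-binding protein, was at 1039, 1136 and 1085 FPKM in the lines and 1038 FPKM in ESC. Ubb, a polyubiquitin gene, was at 912, 911 and 873 FPKM against 859 FPKM, and Nasp, a histone chaperone, at 446, 428 and 435 FPKM against 427 FPKM. Ube2c, a ubiquitin-conjugating enzyme of mitosis, was at 221, 221 and 217 FPKM against 225 FPKM. Such closeness was chosen by the rule and was not tested.

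By chromosome, 1 autosome stood apart in the same way in all 3 lines. Over 598 coding genes of chromosome 8 the median log2 difference was -0.24, with line medians of -0.26, -0.19 and -0.25, beside 0.07 over 10964 genes of the other autosomes. On chromosome 8, 319 genes were below ESC in all 3 lines and 94 above, with 11 called lower and 0 called higher. Over all 12007 coding genes considered, 3238 were below ESC in all 3 lines and 4272 above. The 11 are 1.84% of the chromosome's coding genes, beside 155 called lower among all 12007 coding genes considered. On the other autosomes the share called lower ran from 0.477% (chromosome 12) to 3.89% (chromosome 13). Klf2, the growth factor Vegfc and the oocyte and embryo genes Triml1 and Triml2 were among the 11. Vegfc was at 3.88, 2.69 and 2.33 FPKM in the lines and 15.8 FPKM in ESC (limma adjusted p = 0.0370), and Triml2 at 38.0, 29.6 and 38.6 FPKM against 105 FPKM (limma adjusted p = 0.0343). The median of IEC-CiPSC line 10 against the same ESC library was -0.29 on this chromosome. Since ESC is shared by these differences, a change of level in that 1 library and one in the lines cannot be told apart. Chromosome 6 had a median of 0.16, with 0.28 in line 3 and 0.08 in line 1.

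**Figure D5:**
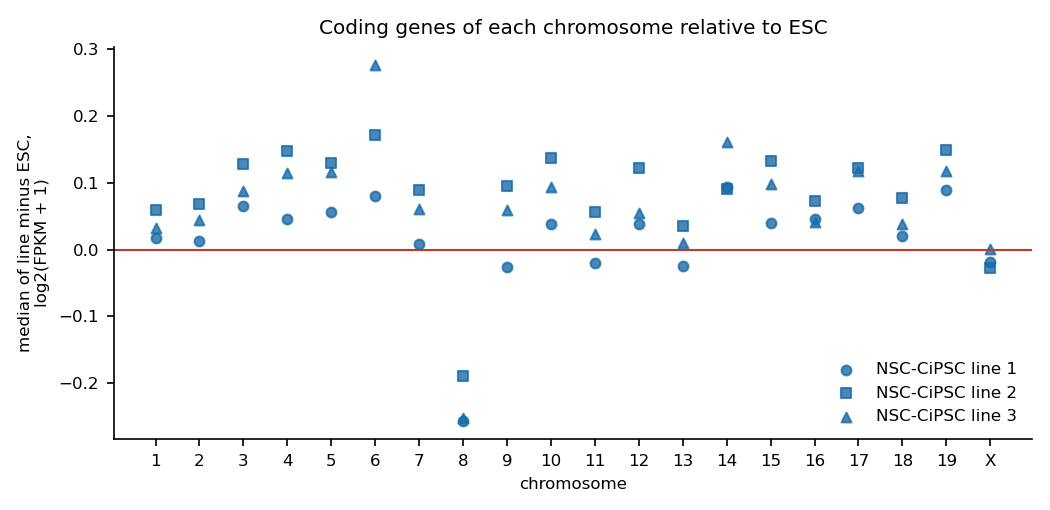
Median difference of each NSC-CiPSC line from ESC in log2(FPKM + 1) over the coding genes of each autosome and the X chromosome. All 3 lines lie between -0.26 and -0.19 on chromosome 8, and the medians of the other autosomes and the X lie between -0.03 and 0.28; the Y chromosome and mitochondrial genes are not drawn.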

How the data were processed

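RNA-seq of 8 mouse libraries was used as FPKM values that the authors deposited per gene, for which the submitters' processing notes name TopHat, Cufflinks and mm10; versions, annotation and total counts are not given in the sources used here. Of 39009 entries, those not marked OK in every library (447) and 162 patch entries were left out, and 27 symbols turned into dates were restored. Biotypes came from GENCODE M21 (37451 of 38987 identifiers matched). log2(FPKM + 1) of genes at 1 FPKM or more in any library was fitted with limma 3.58.1 in R 4.3.3 (5 groups, trend, 3 residual and 1.102 prior degrees of freedom). On simulated data for this comparison (17011 genes) 95% of 4-fold and 100% of 16-fold changes were recovered, with 15 false calls. The simulated spread was smoothed over genes of like level, so it lacked the differences in spread between such genes. Only genes above a minimum level were changed. These shares therefore do not give the recovery to be had in the real data. The members and the 36 gene lists were chosen with earlier results of these data known. The naming rule took, of called members at 10 FPKM or more, the 12 that rose most and the 12 that fell most, up to 4 called members of each list (otherwise its most abundant member), 19 identity genes, and the 6 most abundant genes close to ESC; largest changes left out histone, selenoprotein and Y-linked genes and provisional symbols. Other genes were named after their values were seen. Alternatives changed the pseudocount, the filter, the scaling, the model and the libraries. Shared words are 50-base stretches of the longest transcript found in another gene's transcripts.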

Additional observations from a re-analysis of the deposited data

Results flagged for a closer look

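In 9 of the genes chosen by the naming rule, the lines of neural and of intestinal origin lay on opposite sides of the 1 ESC library. The difference between the origins was at least 2-fold at a limma adjusted p under 0.05. The sides were read from sign alone. For IEC-CiPSC against ESC the limma adjusted p was 0.0457 for Xlr4b. For the other genes it ran from 0.0828 (Crxos1) to 0.372 (Xlr5c), so the side of their IEC-CiPSC lines is uncertain. For NSC-CiPSC against ESC, Tfcp2l1 was not called (limma adjusted p = 0.210). The log2 difference, NSC-CiPSC minus IEC-CiPSC, was -5.83 for Crxos1, -4.87 for Xlr5a, -4.36 for Xlr4a, -4.34 for Xlr3b, -4.27 for Xlr5b, -4.10 for Xlr5c and -3.96 for Xlr4b. For Tfcp2l1, a naive-state factor, it was -1.69, with 21.98, 36.5 and 35.3 FPKM in the NSC-CiPSC lines, 59.5 FPKM in ESC and 99.5 and 101.5 FPKM in the IEC-CiPSC lines. For Spp1 it was 1.46, with ESC (152 FPKM) between the NSC-CiPSC lines (339 to 391 FPKM) and the IEC-CiPSC lines (133 and 128 FPKM). Coding X genes as a whole were higher in the IEC-CiPSC lines than in ESC, as given above with the Xlr genes. The Y-linked gene Eif2s3y was at 36.85, 61.74 and 24.65 FPKM in the NSC-CiPSC lines and 30.98 FPKM in ESC. In the IEC-CiPSC lines it was at 0.547 and 0.305 FPKM. Origin and the levels of sex-chromosome genes therefore differ together between these lines and cannot be told apart.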

How the results depend on the processing

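The number of genes called, 478 over all genes, was 257 with a pseudocount of 5 and 202 in a fit on the 4 libraries alone, and it ran from 187 to 720 when a library was left out. Coding genes called higher, 92 as reported, were 47 with a pseudocount of 5, 143 when only genes at 1 FPKM or more in the 4 libraries were tested, 13 in the fit on the 4 libraries, and 12 to 230 without a library. Those called lower, 155 as reported, were 91 with a pseudocount of 0.1, 80 with a pseudocount of 5, 51 in the fit on the 4 libraries, and 38 to 213 without a library. A fit that leaves out a library has fewer residual degrees of freedom. Of the 247 called coding genes, 208 were called without line 1, 91 without line 2 and 48 without line 3. Of 36 called genes chosen by the naming rule, 7 were called under all 16 alternatives and 0 changed direction. No paired analysis was possible because ESC is 1 library and shares no replicate number with the lines in a way that could form pairs. FPKM keeps no total count, so the precision of low values is known only from the authors' intervals.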

Other observations

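Histone genes of the Hist clusters were outside the naming rule. Of 45 tested, 10 were called lower and none higher, with a median log2 difference of -0.47, and 15 had lines on both sides of ESC. Over all 17011 genes tested, 1.86% were called lower. The calls lay in 1 family apart from Hist1h2ba: of 15 genes of the H2A family, 9 were called lower and none higher, with a median log2 difference of -1.63. Hist1h2ba was near the floor, at 0.0922, 0 and 0 FPKM against 1.23 FPKM, with an ESC interval from 0 to 2.89 FPKM. In 13 of the 15 H2A genes all 3 lines were below ESC. In 1, Hist1h2ag, all were above, at 24.35, 34.1 and 28.8 FPKM against 14.3 FPKM (limma adjusted p = 0.0961). Hist1h2ap was at 124, 126 and 122 FPKM in the lines against 432.5 FPKM in ESC (limma adjusted p = 0.000678), and Hist1h2ah at 9.08, 11.8 and 11.0 FPKM against 113.5 FPKM (limma adjusted p = 0.00455). Without line 3 the count was 2 of 15, and 4 without either IEC-CiPSC line. The copies examined share 67.1% to 93.1% of their words with other genes, so the level of any 1 copy is uncertain.

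Ribosomal protein genes had 3 calls higher and 1 lower among 83, with a median log2 difference of 0.10, and 1 higher and 0 lower without either IEC-CiPSC line, where Rpl29 kept its call. Rpl29 was at 1006, 1054 and 953 FPKM against 190 FPKM in ESC (limma adjusted p = 0.00209), and 47.9% of its words occur in other genes. Rpl10l, an autosomal copy of an X-linked ribosomal protein gene that is used in the male germ line, was at 27.9, 46.9 and 37.2 FPKM against 161.6 FPKM (limma adjusted p = 0.0496). Its adjusted p was 0.0682 without line 2, 0.163 without line 3, 0.159 and 0.160 without IEC-CiPSC lines 10 and 13, and 0.0584 with a pseudocount of 0.1. Of the Y-linked genes listed, Kdm5d, a histone demethylase, was at 2.05, 3.11 and 1.77 FPKM in the lines and 0.0737 FPKM in ESC (limma adjusted p = 0.0556), while Ddx3y was at 11.3, 12.7 and 7.89 FPKM against 14.3 FPKM and Uty at 5.62, 7.29 and 3.56 FPKM against 5.19 FPKM. These gene families were looked at after their values were seen.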
